A study of Bos taurus with 9 samples.

Results

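The 8 genes described here make cholesterol, control its synthesis or turn it into an oxysterol. They are *CH25H*, *HMGCS1*, *IDI1*, *FDFT1*, *SQLE*, *DHCR7*, *SREBF2* and *INSIG1*, chosen by gene symbol. All 8 were found among the 17162 genes of the FPKM table, and all 8 were above the filter on low values, a mean FPKM of 0.5, that left 12578 genes to test. FPKM counts sequenced fragments relative to transcript length and library size, so levels of different genes can be set side by side. No receptor for lipoprotein uptake is among the 8, and the uptake genes were read from a wider list of the pathway.

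RNA was sequenced from cultured bovine endometrial cells (BEND) of wild type genotype in 9 libraries, 3 from each of 3 groups. CON cells received no hormone and no interferon. GA cells received 1 nM estradiol (E2) and 100 nM progesterone (P4), with a treatment time given as 12 h. GB cells received the same hormones for 12 h and then 100 ng/mL interferon tau (IFNT), the type I interferon of the ruminant conceptus, for another 12 h. All groups were grown in medium with fetal bovine serum, which carries lipoprotein cholesterol. In the comparisons with GB, IFNT cannot be told apart from a longer culture or a longer time with hormones. The sources used here do not give the time at which CON and GA cells were collected. They call the 3 samples of a group biological replicates without tying them to separate animals, so the p-values measure the spread between these samples.

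The cells are labelled epithelial, and per the study's methods they were purified by differential attachment over several passages. The study reports positive staining for a cytokeratin protein. The RNA goes against the label. None of 6 epithelial markers exceeded 0.70 FPKM in any library, and 4 of them (*KRT8*, *KRT7*, *CDH1* and *CLDN4*) were listed at 0 in at least 1 library. Their sum was 0.43 to 1.53 FPKM in CON, 0.78 to 1.61 for GA and 0.96 to 1.90 for GB. The 6 stromal markers, led by *VIM*, summed to 15439 to 16010 FPKM in CON, to 15532 to 15831 for GA and to 13788 to 13932 for GB. Of these 6, limma called 4 lower and none higher in each comparison with GB. Of all tested genes, 17.3% were called lower against CON and 19.2% against GA. *VIM*, *COL1A2* and *COL3A1* were called lower in both, *PDGFRB* only against CON and *DCN* only against GA. In GA vs. CON *DCN* was called higher and *PDGFRB* lower, beside 0.246% and 0.207% of all tested genes. The part of these differences in the results below was not tested. In bulk RNA, fewer cells of a type and less RNA per cell cannot be told apart. The 3 endothelial markers summed to at most 2.92 FPKM. The 4 immune markers summed to 23.5 to 30.1 FPKM, mostly *CD14*. The treatments could be read in the libraries, since *MX2* was at most 0.09 FPKM in CON and 753 to 762 in GB, and *GREB1*, an estrogen target, was at most 0.38 in CON and 2.12 to 2.44 in GA.

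Cells build cholesterol from acetyl-CoA through the mevalonate pathway, and take it up from lipoproteins. When sterol in the endoplasmic reticulum is low, SCAP carries the SREBP-2 precursor, the product of *SREBF2*, to the Golgi, where the proteases encoded by *MBTPS1* and *MBTPS2* release its active part, which switches on genes of synthesis and uptake. Sterol or 25-hydroxycholesterol, the product of *CH25H*, makes INSIG hold SCAP and SREBP-2 back. *CH25H* is known as an interferon-induced antiviral gene in macrophages. In the uterus cholesterol serves membranes and steroid metabolism.

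*CH25H*, which encodes the enzyme that adds a hydroxyl group to carbon 25 of cholesterol, had the largest difference of the 8 genes. It was at 17.6, 18.8 and 18.6 FPKM in the 3 CON libraries. It was at 13.3, 12.7 and 18.5 FPKM in the GA libraries. It was at 7.49, 7.85 and 8.42 FPKM in the GB libraries. All 3 GB libraries lay below the other 6, while GA overlapped with CON because of its library 3. From CON to GB the mean fell by 56.8%, from 18.3 ± 0.636 (SD, n = 3) to 7.92 ± 0.469 FPKM, which is a log2FC of −1.16 (SE 0.13). Its adjusted p was 0.000131 in limma, with the adjustment of Benjamini and Hochberg. From GA to GB it fell by 46.6%, a log2FC of −0.85 (SE 0.13, adjusted p = 0.00108, same test). In GA vs. CON the log2FC was −0.32 with a 95% interval of −0.60 to −0.030, which did not pass (adjusted p = 0.222, limma). Without GA library 3, this log2FC was −0.48 (adjusted p = 0.107, limma), and that of GB vs. GA was −0.68 (adjusted p = 0.00054, limma).

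The study called a DEG at an adjusted p under 0.05 and |log2FC| above 1, with another test, DESeq2, on read counts. With the same thresholds in limma on FPKM, *CH25H* was the only DEG of the 8 genes, and in GB vs. CON only. In that comparison 1.07% of all tested genes were DEGs with a lower level in GB. Its call in GB vs. CON held with each library left out in turn, where the log2FC ranged from −1.20 to −1.13. It was lost in 1 fit, chosen after seeing the data, with library GC content and the replicate number as terms (log2FC −1.09, adjusted p = 0.107, limma). In the RefSeq annotation of a later bovine assembly no other gene overlaps *CH25H*.

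**Figure D1:**
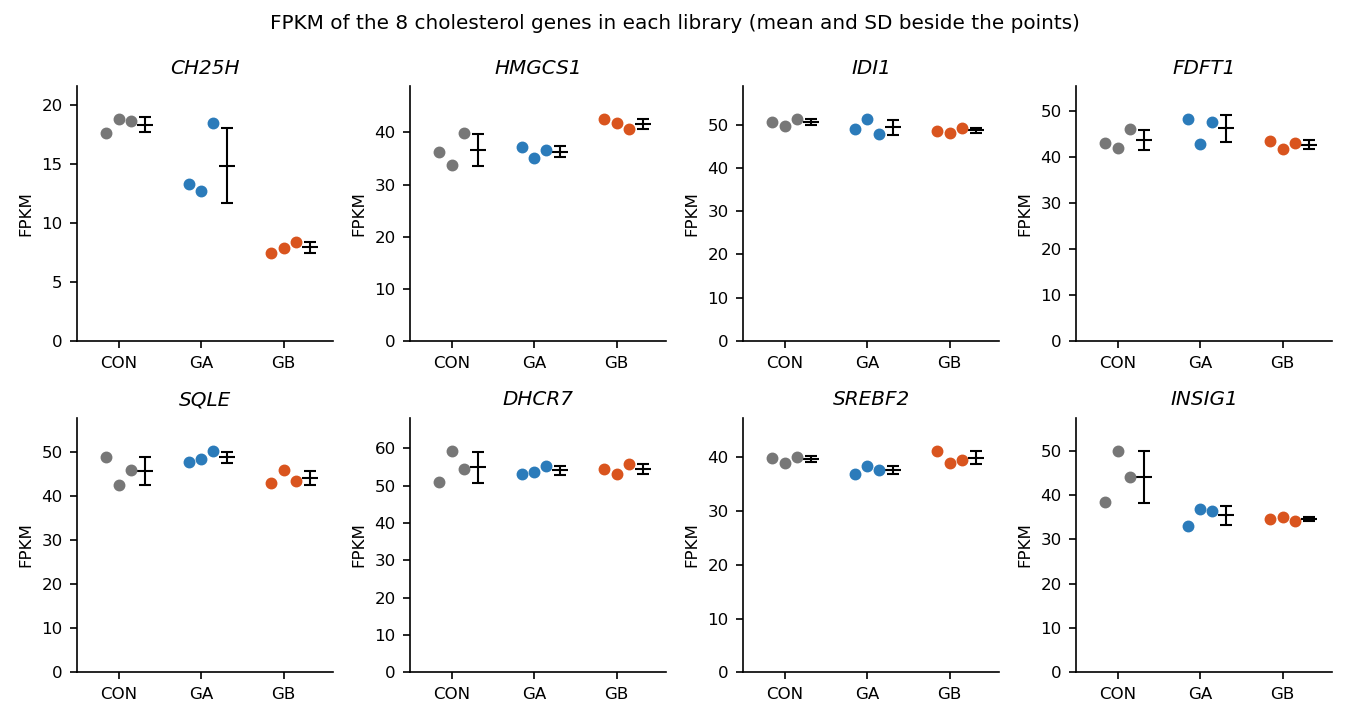
FPKM (vertical axes, from 0) of each of the 8 genes in the 3 CON, 3 GA and 3 GB libraries, as points, with the group mean and SD as a bar beside them. *CH25H* lies at 7.49 to 8.42 FPKM in GB, below all other libraries, *INSIG1* is lower in GA and GB than in CON, and the synthesis enzymes stay at similar levels.

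Across all tested genes, in GB vs. CON an adjusted p under 0.05 was reached by 16.2% of tested genes with a higher level in GB and 17.3% with a lower level. In GB vs. GA the shares were 9.87% higher and 19.2% lower, and in GA vs. CON 0.246% higher and 0.207% lower. Of the 8 genes, 0 were called higher and 2 lower (*CH25H* and *INSIG1*) in GB vs. CON. Against GA, 1 was called higher in GB (*HMGCS1*) and 1 lower (*CH25H*). In GA vs. CON none of the 8 was called by limma, and 2 had an unadjusted p under 0.05. The median log2FC of the 8 genes was −0.042 for GB vs. CON, −0.028 for GB vs. GA and −0.027 for GA vs. CON, beside −0.016, −0.075 and 0.061 over all tested genes. The split of calls over all genes moved with the scaling. In GB vs. GA it was 1242 higher and 2409 lower as deposited, and 1792 against 1594 once median-of-ratios factors were applied. In GA vs. CON it was 31 higher and 26 lower as deposited, 26 and 48 after rescaling to the same sum, 24 and 66 with median-of-ratios factors, and 28 and 57 after quantile normalization.

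**Figure D2:**
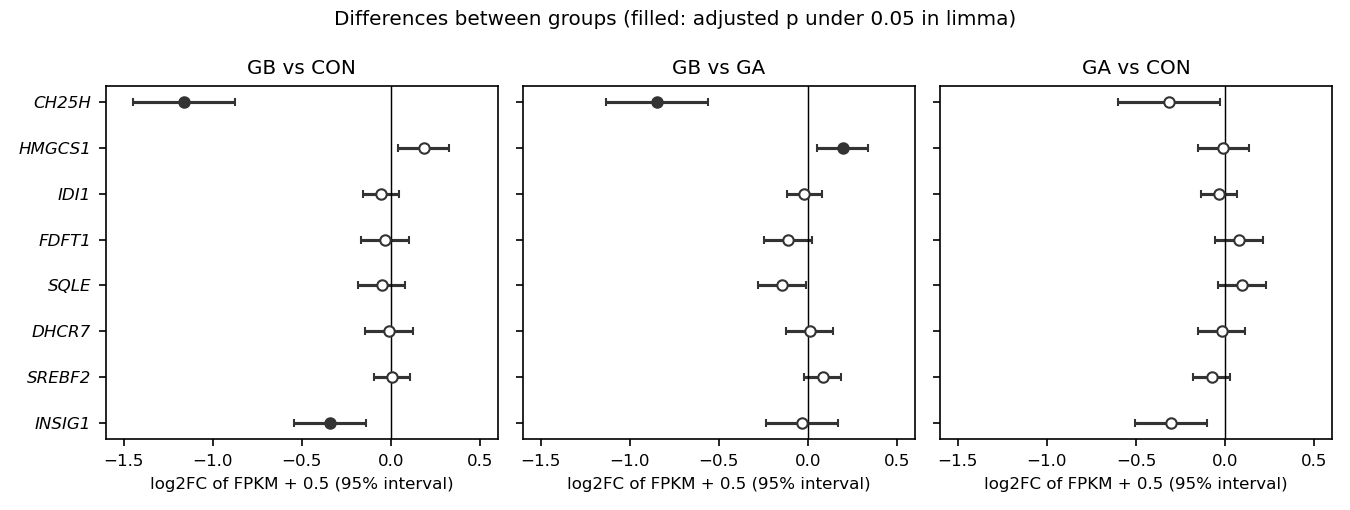
The log2FC of each of the 8 genes (horizontal axis, log2 of FPKM + 0.5, with the 95% interval from limma) in the 3 comparisons, with filled points where the adjusted p was under 0.05. *CH25H* is at −1.16 and −0.85 in the comparisons with GB, and the intervals of *IDI1*, *FDFT1*, *DHCR7* and *SREBF2* include 0 in every comparison.

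The 5 synthesis enzymes among the 8 genes differed little between groups. *HMGCS1* encodes the cytosolic synthase that makes HMG-CoA, an early intermediate of the pathway. It was at 36.3, 33.8 and 39.85 FPKM in CON, at 37.3, 35.1 and 36.7 in GA and at 42.5, 41.9 and 40.6 in GB. The 3 GB libraries were above the other 6, although the lowest of them exceeded CON library 3 by little. *HMGCS1* was 14.7% higher in GB than in GA (log2FC 0.20, SE 0.064, adjusted p = 0.0463, limma) and 13.7% higher than in CON (log2FC 0.19, adjusted p = 0.0501, limma), so that it passed in the first comparison and missed in the second. In GB vs. CON it passed without CON library 3 (0.25, adjusted p = 0.0146, limma), and with the filter raised to 1, rescaling to the same sum or median-of-ratios factors (adjusted p = 0.0478, 0.0464 and 0.0212, limma). The call in GB vs. GA was lost without CON library 1 (0.20, adjusted p = 0.0622, limma). It was lost too without any 1 of the GA or GB libraries (0.17 to 0.21, adjusted p 0.073 to 0.136, same test), without the filter on low values and without the variance trend. The replicate block lost the call as well, alone or with library GC content as a covariate (adjusted p = 0.0593 and 0.0720, limma).

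*IDI1* encodes the isomerase that interconverts the isoprenoid building blocks. It was at 50.7, 49.8 and 51.2 FPKM in CON, 49.0, 51.25 and 47.9 in GA, and 48.6, 48.2 and 49.2 in GB. It varied least of the 8 genes, with a highest library 1.07 times the lowest. The 3 GB libraries were below the 3 CON libraries and overlapped with GA. Its log2FC in GB vs. CON was −0.055 with a 95% interval of −0.15 to 0.044, and did not pass (adjusted p = 0.369, limma).

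*FDFT1*, squalene synthase, catalyses the first step committed to sterols. It was at 42.9, 41.9 and 46.05 FPKM in CON, 48.1, 42.8 and 47.6 in GA, and 43.4, 41.6 and 42.9 in GB. The 3 groups overlapped, and the 95% interval of the log2FC was −0.17 to 0.10 for GB vs. CON and −0.25 to 0.024 in GB vs. GA.

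*SQLE*, squalene monooxygenase, adds the oxygen that precedes ring closure and is a second point of control. It was at 48.8, 42.5 and 45.8 FPKM in CON, 47.7, 48.3 and 50.2 in GA, and 42.9, 45.9 and 43.3 in GB. The GB libraries were all below the GA libraries and overlapped with CON. The log2FC in GB vs. GA was −0.15 with an interval of −0.28 to −0.012, and did not pass (adjusted p = 0.0982, limma). It passed with library GC content as a covariate (log2FC −0.16, adjusted p = 0.0379, limma).

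*DHCR7* encodes the reductase that turns 7-dehydrocholesterol into cholesterol. Its level was the highest of the 8 genes in each group, with 51.0, 59.4 and 54.45 FPKM in CON, 53.15, 53.8 and 55.4 in GA, and 54.5, 53.2 and 55.85 in GB. The means of 54.9 ± 4.22, 54.1 ± 1.154 and 54.5 ± 1.34 (SD, n = 3) lay within 1 SD of each other. The 95% interval of its log2FC was −0.14 to 0.12 in GB vs. CON.

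The remaining 16 synthesis enzymes on the wider list were read from the same fit. With the 5 above, these 21 enzymes had a summed level of 938 ± 16.0 FPKM (SD, n = 3) for CON, of 983 ± 6.63 for GA and of 936 ± 16.7 for GB. The GA libraries were at 981, 978 and 991, above all others, and CON and GB overlapped. The GA libraries also had the highest FPKM sums over all genes, 1435457 to 1442723 against at most 1427451 in the others. The median log2FC in GA vs. CON was 0.054 for the 21 enzymes and 0.061 for all tested genes, and the latter was 0.0033 after median-of-ratios scaling. Of the 16, limma called 2 higher and 1 lower in GB vs. CON, 1 higher and 3 lower in GB vs. GA, and none in GA vs. CON. None was a DEG. The median log2FC of the 16 was −0.029, −0.037 and 0.059 in these comparisons. Over all tested genes the shares called were 16.2% higher and 17.3% lower in GB vs. CON, and 9.87% and 19.2% in GB vs. GA. For 17 of the 21 enzymes the 95% interval of the log2FC in GB vs. CON lay between −0.5 and 0.5.

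*MSMO1*, the C4-methyl sterol oxidase, had the largest rise of the 16 in GB vs. CON. It was at 49.8, 42.5 and 44.9 FPKM in CON, 58.5, 61.0 and 61.6 in GA, and 56.3, 72.3 and 61.7 in GB, so that GA and GB overlapped and both lay above CON. It rose by 38.7% from CON to GB (log2FC 0.46, SE 0.091, adjusted p = 0.00416, limma), and its log2FC in GA vs. CON was 0.40 (adjusted p = 0.085, limma). *ACAT2*, the thiolase at the entry of the pathway, fell by 10.5% from CON and by 18.7% from GA to GB (log2FC −0.16 and −0.30). It shares part of its locus with *TCP1* in the RefSeq annotation, and reads of overlapping genes may not be separable where strand was not used. *EBP* and *MVK*, a sterol isomerase and mevalonate kinase, fell from GA to GB (log2FC −0.30 and −0.23). With library GC content as a covariate the GB vs. CON calls of *MSMO1* and *ACAT2* were lost, at log2FC of 0.23 and −0.12. With median-of-ratios factors the GB vs. GA calls of *EBP* and *MVK* were lost, and that of *EBP* also in a fit of those groups alone. The *ACAT2* call in GB vs. CON was lost without CON library 1 or GB library 1 or 3. The *EBP* call was lost without GB library 1 or 2, and the *MVK* call without any 1 of the GB libraries or GA library 2 or 3.

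*SREBF2* and *INSIG1* belong to the control of the pathway. *SREBF2*, which encodes the transcription factor and is among its targets, was at 39.9, 38.9 and 40.1 FPKM in CON, 36.9, 38.4 and 37.5 in GA, and 41.2, 38.9 and 39.5 in GB. The 3 GA libraries were the lowest, by a narrow margin. The log2FC was −0.075 in GA vs. CON, 0.083 in GB vs. GA and 0.0078 in GB vs. CON, and none passed (adjusted p 0.209 to 0.918, limma). With median-of-ratios factors that of GB vs. GA passed (0.16, adjusted p = 0.0348, limma).

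*INSIG1*, the sterol-sensing anchor that retains SCAP and is also a target of SREBP-2, was lower in GB than in CON. It was at 38.4, 50.02 and 44.05 FPKM in CON. It was at 33.05, 36.95 and 36.5 FPKM in GA. It was at 34.7, 35.1 and 34.1 FPKM in GB. The 6 hormone-treated libraries were all below the 3 CON libraries, which spread widely, and GA and GB overlapped. *INSIG1* fell by 21.6% from CON to GB (log2FC −0.34, SE 0.089, adjusted p = 0.0175, limma). The difference between GA and CON was nearly as large, with a log2FC of −0.30 and an interval of −0.51 to −0.10, but did not pass (adjusted p = 0.135, limma). In GB vs. GA the log2FC was −0.035, with an interval of −0.24 to 0.17. The call in GB vs. CON was lost without GB library 3 (−0.33, adjusted p = 0.0515, limma) and with library GC content as a covariate (−0.11, adjusted p = 0.697, limma). Each CON library had a higher GC content than every GA and GB library. Against CON, this covariate and the group therefore cannot be told apart, here and for the other genes. The part of GC content in this difference was not tested.

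Of 10 other genes of SREBP control, limma called 1 higher and 3 lower in GB vs. CON, 1 higher and 2 lower in GB vs. GA, and none in GA vs. CON. The median log2FC was 0.088, −0.079 and 0.037. Among all tested genes 16.2% were called higher and 17.3% lower in GB vs. CON, and 9.87% and 19.2% in GB vs. GA. *MBTPS1*, the site-1 protease that makes the first cut in SREBP, was at 54.0, 57.4 and 52.9 FPKM in CON, 53.2, 55.2 and 57.2 in GA and 27.5, 27.9 and 27.1 in GB. The GB libraries lay near each other and far below the rest, and CON and GA overlapped. *MBTPS1* fell by 49.8% from CON and by 50.2% from GA to GB (log2FC −0.98 and −0.99, SE 0.050, adjusted p = 5.8e-07 and 5.4e-07, limma), just short of the fold threshold of a DEG. With single libraries left out, these log2FC ranged from −1.01 to −0.95 and from −1.02 to −0.97, so that some fits passed that threshold. *RNF139*, an endoplasmic reticulum ubiquitin ligase that binds INSIG, was at 24.3, 19.7 and 23.1 FPKM in CON, 22.8, 24.4 and 23.25 in GA and 36.95, 41.8 and 46.2 in GB, above the other libraries throughout. It rose by 86.2% from CON (log2FC 0.88, SE 0.097) and by 77.4% from GA (log2FC 0.81). *SREBF1*, which encodes the SREBP of fatty acid synthesis, fell by 17.3% from CON to GB (log2FC −0.27, adjusted p = 0.00452, limma) and not past the threshold from GA (log2FC −0.099). Its locus overlaps with *RAI1*, which was at 12.1 FPKM in CON and 8.79 in GB on average. *SCAP* and *INSIG2* were not called in any comparison. With library GC content as a covariate the GB vs. CON calls of *MBTPS1* and *RNF139* held and that of *SREBF1* was lost at a log2FC of −0.34, no smaller than without it. With the replicate block added to that covariate, the call of *MBTPS1* still held and that of *RNF139* was lost (log2FC 0.42, adjusted p = 0.273, limma). An uncharacterised gene, not analysed here, overlaps *MBTPS1* in the annotation.

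**Figure D3:**
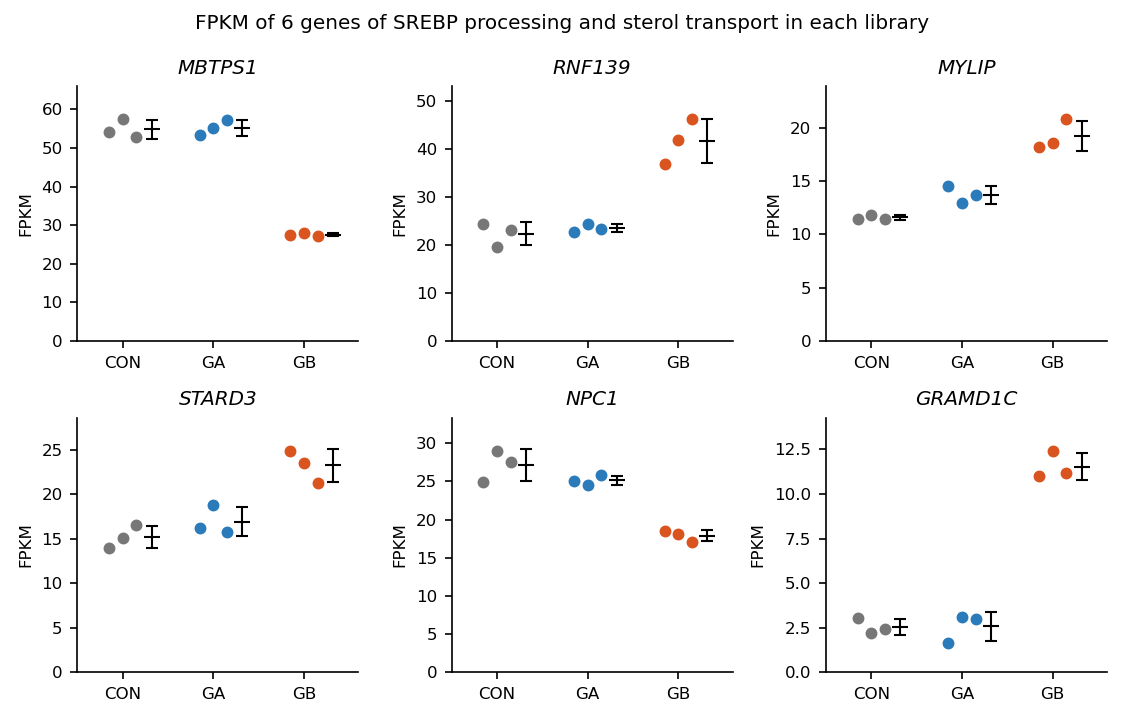
FPKM (vertical axes, from 0) of 6 genes of SREBP processing and sterol transport in the 9 libraries, as points by group, with the mean and SD as a bar. *MBTPS1* and *NPC1* are lower in all 3 GB libraries than in the other 6, and *RNF139*, *MYLIP*, *STARD3* and *GRAMD1C* are higher.

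Of 16 genes of uptake and transport within the cell, 14 were in the table and all 14 were tested. The other 2 were not analysed here. Limma called 4 higher and 2 lower in GB vs. CON, 5 higher and 3 lower in GB vs. GA and none in GA vs. CON, with medians of 0.069, 0.11 and −0.036. Beside these stand 16.2% higher and 17.3% lower over all tested genes in GB vs. CON, and 9.87% and 19.2% in GB vs. GA. *MYLIP* encodes a ubiquitin ligase that LXR induces. It was at 11.5, 11.9 and 11.5 FPKM in CON, 14.55, 12.9 and 13.7 in GA and 18.3, 18.6 and 20.8 in GB. The 3 groups did not overlap with each other. It rose by 65.6% from CON and by 40.2% from GA to GB (log2FC 0.70 and 0.47). *GRAMD1C*, 1 of a family of carriers that move sterol from the plasma membrane to the endoplasmic reticulum, was at 3.03, 2.2 and 2.42 FPKM in CON, 1.63, 3.08 and 3.01 in GA and 11.0, 12.4 and 11.2 in GB. It was the only DEG of the list, with log2FC of 1.99 and 2.01 (SE 0.20). Its relatives *GRAMD1A* and *GRAMD1B* were not called. Uncharacterised genes that are absent from the FPKM table overlap the *GRAMD1C* locus in the RefSeq annotation. *STARD3*, a sterol carrier of late endosomes, rose by 53.0% from CON and 37.3% from GA (log2FC 0.60 and 0.45).

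*NPC1*, which exports cholesterol from lysosomes, was at 24.9, 29.0 and 27.5 FPKM in CON, 25.1, 24.6 and 25.8 in GA and 18.5, 18.1 and 17.1 in GB. It fell by 34.0% from CON and 28.8% from GA (log2FC −0.58 and −0.48), and it overlaps with *RMC1* in the annotation. *LIPA*, the lysosomal lipase that frees cholesterol from its esters, rose from 21.8 ± 2.61 in CON and 24.3 ± 1.88 in GA to 35.2 ± 1.24 FPKM in GB (log2FC 0.68 and 0.53). This value is uncertain. *LIPA* is the gene next to *CH25H*, and its locus in RefSeq overlaps with *IFIT2*, *IFIT3*, *IFIT5* and *LOC100139670*, among others. Of these, *IFIT2* went from 0.157 ± 0.136 FPKM in CON to 232 ± 5.86 in GB, and *LOC100139670* from 18.5 ± 3.09 to 874 ± 13.9. The sources do not say whether strand was used in the counting. With library GC content as a covariate the GB vs. CON calls of *NPC1* and *LIPA* were lost (log2FC −0.43 and 0.38) and those of *MYLIP*, *STARD3* and *GRAMD1C* held. These too were lost once the replicate block was added. There the log2FC of *MYLIP* and *STARD3* were 0.81 and 0.67, beside 0.70 and 0.60 with neither term, and that of *GRAMD1C* was 1.199.

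**Figure D4:**
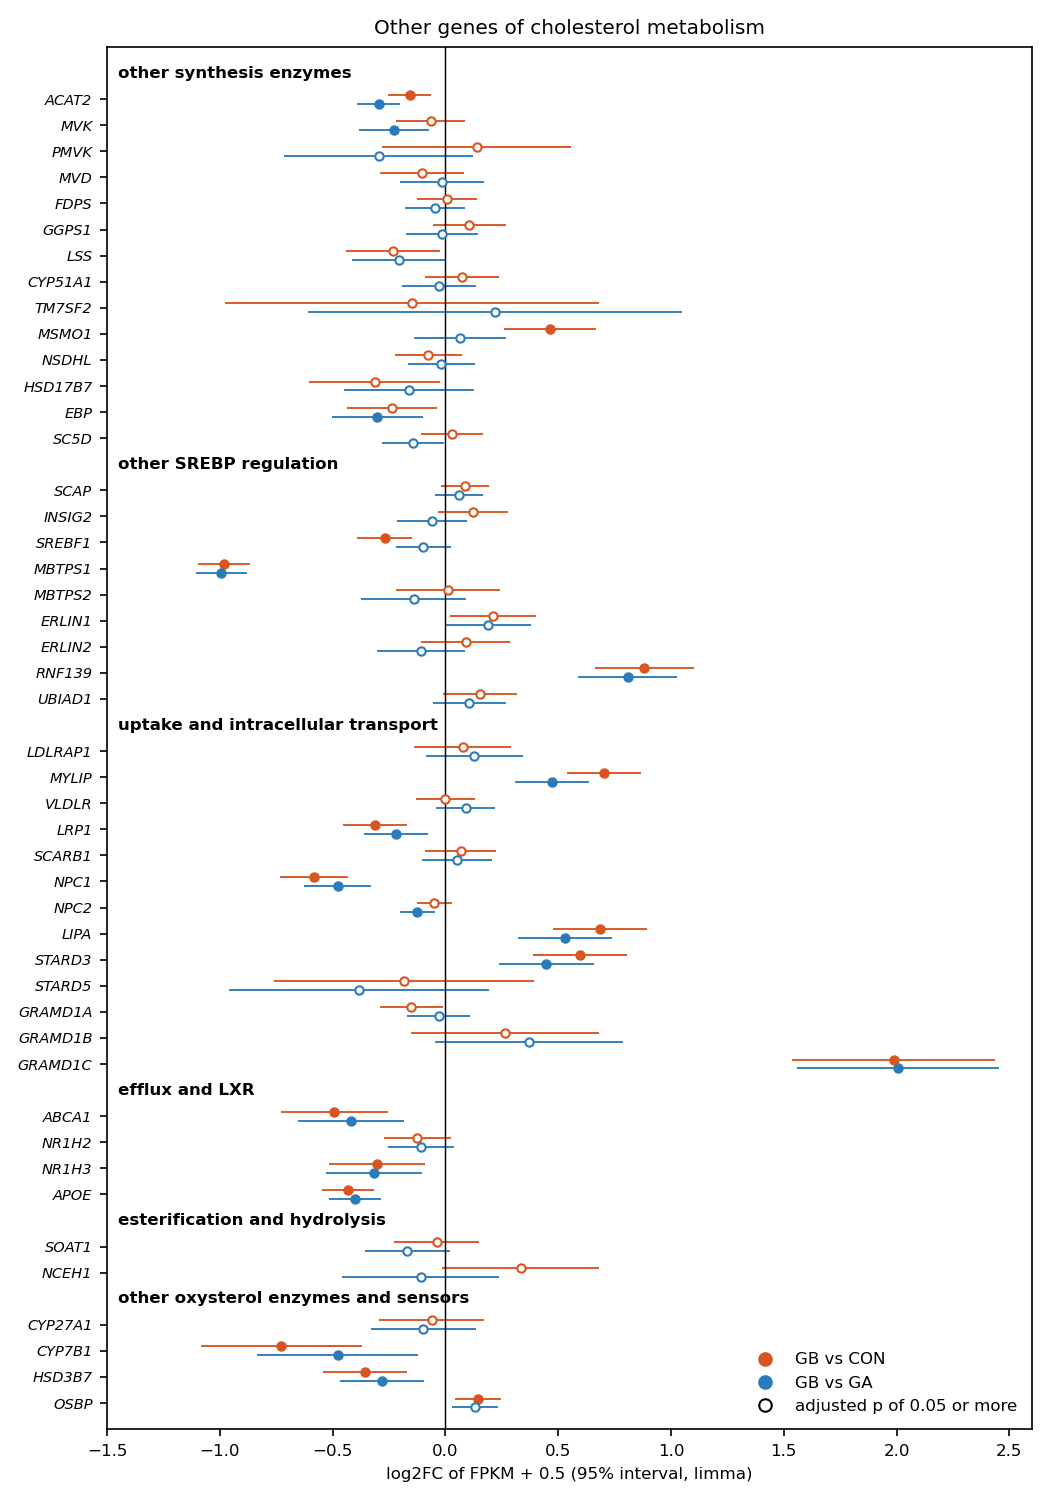
The log2FC (horizontal axis, log2 of FPKM + 0.5, with the 95% interval from limma) of most tested genes of 6 lists of cholesterol metabolism in GB vs. CON (orange) and GB vs. GA (blue), with filled points where the adjusted p was under 0.05. Most synthesis enzymes lie near 0, *MBTPS1* is near −1 and *GRAMD1C* near 2 in both comparisons, which share the GB libraries.

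Of the genes of cholesterol efflux, *ABCA1*, *APOE* and *NR1H3* were lower in GB. Of 5 genes listed, 4 were tested, and 3 were called lower in each comparison with GB and none higher, with medians of −0.37 and −0.36. The share called lower over all tested genes was 17.3% against CON and 19.2% against GA, and the latter share moved with the scaling as given above. No gene of this list was called in GA vs. CON, where the median was −0.023. *ABCA1*, the efflux pump for cholesterol, was at 6.38, 6.17 and 6.60 FPKM in CON, 5.67, 5.97 and 6.50 in GA and 4.95, 4.48 and 3.81 in GB. It fell by 30.9% from CON and 27.0% from GA (log2FC −0.49 and −0.42, adjusted p = 0.00633 and 0.0157, limma). *APOE*, the apolipoprotein that accepts it, fell by 25.7% and 24.2% (log2FC −0.43 and −0.40), from 337 ± 5.48 FPKM in CON to 250.5 ± 16.7 in GB. *NR1H3*, which encodes the oxysterol receptor LXR alpha, fell by 19.5% and 20.2% (log2FC −0.30 and −0.32), while *NR1H2*, which encodes LXR beta, was not called. *ABCG1* was listed at 0 in 7 of the 9 libraries and was not tested. With library GC content as a covariate the 3 calls in GB vs. CON were lost, while the log2FC were −0.49 for *ABCA1*, −0.35 for *APOE* and −0.31 for *NR1H3*. The *ABCA1* call in GB vs. GA was lost without GA library 3. The *NR1H3* call in GB vs. CON was lost without CON library 2 or 3 or GB library 2 or 3. That in GB vs. GA was lost without GA or GB library 2 or 3, and with median-of-ratios factors.

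Beside *CH25H*, 7 genes of oxysterol metabolism and binding were on the list, of which 4 were tested. In GB vs. CON 1 was called higher and 2 lower, in GB vs. GA 2 were called lower, and in GA vs. CON none, with medians of −0.21, −0.19 and −0.029. For all tested genes the shares called were 16.2% higher and 17.3% lower in GB vs. CON, and 9.87% and 19.2% in GB vs. GA. *CYP7B1*, the hydroxylase that acts on 25-hydroxycholesterol, was at 5.33, 5.59 and 5.39 FPKM in CON, 5.19, 4.07 and 4.29 in GA and 3.64, 2.29 and 3.49 in GB. It fell by 42.2% from CON to GB (log2FC −0.73, SE 0.16, adjusted p = 0.00707, limma), and its fall from GA passed narrowly (log2FC −0.48, adjusted p = 0.0494, limma) and was lost in 16 of 21 other fits. *HSD3B7*, which acts after it, fell by 22.4% from CON and 18.0% from GA (log2FC −0.36 and −0.28). *OSBP*, a sterol sensor and carrier, rose by 10.8% from CON (log2FC 0.15), a call lost in 11 of 21 other fits. *CYP27A1*, which makes another oxysterol, was not called. With library GC content as a covariate, *CYP7B1* and *HSD3B7* lost their calls in GB vs. CON, at log2FC of −0.56 and −0.11. That of *HSD3B7* in GB vs. GA was lost in 8 of 21 other fits, among them those without GA library 1 or 3 or any 1 of the GB libraries. *GPR183*, the receptor for the oxysterol made from the product of *CH25H* by *CYP7B1*, was at most 0.460 FPKM and was not tested. Of the genes of cholesterol esters, *SOAT1* and *NCEH1* were tested and not called in any comparison, with medians of 0.15, −0.14 and 0.29, and *SOAT2* was under the filter.

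Genes whose profile over the 9 libraries was most like that of *CH25H* were found by Pearson's r of log2(FPKM + 0.5), over libraries that share the 3 treatments. Among the 5 closest were *AAK1* (r = 0.989), *OLFML2B* (0.988), *SH3BP5* (0.988) and *PELI3* (0.982). *AAK1* was at 21.2, 20.2 and 20.8 FPKM in CON, 18.4, 18.3 and 21.7 in GA and 14.5, 14.85 and 15.04 in GB, with the same high GA library 3 as *CH25H* and a smaller range. For the mean z-score of the 5 synthesis enzymes among the 8 genes, the closest were *MCU* (r = 0.956), *ANKRD13C* (0.950), *GEMIN8* (0.945), *FDX2* (0.945) and *HAX1* (0.927), none of them a gene of the lists. Among the 8 genes themselves, r ranged from −0.752 for *CH25H* with *HMGCS1* to 0.660 for *CH25H* with *INSIG1*. Among the synthesis enzymes *SQLE* had r of 0.510 with *FDFT1* and −0.596 with *DHCR7*.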

How the data were processed

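Per the labels and the study's methods, the authors trimmed reads with fastp 0.21.0, removed rRNA reads with Bowtie2, aligned to ARS-UCD1.2 with HISAT2 2.2.1, quantified genes with RSEM 1.3.3 and deposited FPKM to 2 decimals, with replicates in separate columns. Read counts were not used here, so the depth behind a value is not given. The library kit keeps strand. The annotation release and the strand setting of the counting were not given in the sources used here. FPKM summed to between 1395622 and 1442723 per library.

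With R 4.3.3 and limma 3.58.1, log2(FPKM + 0.5) was fitted for 12578 genes, those whose FPKM averaged 0.5 or more, over all 9 libraries with a mean per group and a variance trend. A gene was called at a Benjamini-Hochberg adjusted p under 0.05 over all tested genes, in the 3 comparisons of the groups. A fold change on this scale understates that of low genes. An exact permutation test of 3 against 3 libraries cannot go below 0.1. The procedure was also run on simulated data with values drawn independently, a run that does not bear on the calls given here. Figures were drawn with Python 3.11.15 and matplotlib 3.10.9.

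The members and lists were chosen with earlier results of these data known. Named genes were the 8 members, called genes of the lists, at most 4 per list and comparison by |log2FC|, with the exceptions stated (genes named as not called were chosen after their values were seen), genes listed at 0, check genes and the 5 genes of closest profile. Gene neighbours came from RefSeq for ARS-UCD2.0, without coordinates, and all 8 members matched it. Alternatives were another pseudocount (1 or 0.1), filter (none or 1), scaling, variance trend, the 2 groups alone, the replicate block, library GC content from the supplement, and each library left out. Some genes of the lists and profiles are counted but not reported here by name.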

Additional observations from a re-analysis of the deposited data

How the results depend on the processing

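The number of members past an adjusted p of 0.05 in GB vs. CON was 2. It was 1 with library GC content as a covariate, 0 with this covariate and the replicate block together, a fit chosen after seeing the data, and 1 to 3 with single libraries left out, the lowest without GB library 3. It was 3 with a filter at 1, rescaling to the same sum or median-of-ratios factors. In GB vs. GA it was 2, and 1 without a filter on low values, without the variance trend or with the replicate block, 3 with median-of-ratios factors or GC content, and 1 to 2 with single libraries left out. The calls lost were that of *HMGCS1* in GB vs. GA and that of *INSIG1* in GB vs. CON, and in the fit with both terms that of *CH25H* in GB vs. CON, so that DEGs among the members went from 1 to 0. In GA vs. CON it was 0 in every fit run. Over genes, deviations from the group means had r of −0.031 to 0.077 for same-numbered libraries and −0.068 to 0.056 for differently numbered ones. Whether same-numbered libraries were prepared together cannot be told from these values. The replicate block moved the count of all calls in GB vs. CON, GB vs. GA and GA vs. CON to 4062, 3434 and 53. With GC content and the block, log2FC in GB vs. CON turned to −0.059 for *MSMO1*, 0.059 for *FADS2* and 0.019 for *PDGFRB*. The causes were not tested. In comparisons with CON, GC content and group cannot be told apart, since GC content was higher in every CON library than in all others.

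Over all genes, calls in GB vs. CON went from 4212 to 1472 with GC content and to 514 with the block added, where DEGs went from 504 to 328. Calls in GA vs. CON went from 57 to 0 in both fits, to 34 with no filter, 13 with no variance trend and 90 with median-of-ratios factors, and DEGs there from 9 to 0 with GC content, 2 with a filter at 1 and 5 with the block. The 0 calls with GC content stand beside 984 genes at an unadjusted p under 0.05, and 987 with the block added. Single libraries left out moved the calls to between 7 (without CON library 1) and 78 (without CON library 3), and the DEGs to between 3 and 13. Of 3273 values of single genes under other settings, 235 lost a call, 21 gained one and 3014 kept their side of the threshold. Counted apart from these were 3 that were called in the main fit and turned sign, named above. Of all values 120 changed sign, which apart from the 3 above were not called in either fit. Genes of low FPKM rest on few reads.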

Other observations

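Genes of fatty acid synthesis that SREBP-1 controls were read from the same fit. Of 9 tested, limma called 1 higher and 5 lower in GB vs. CON, 1 higher and 4 lower in GB vs. GA, and none in GA vs. CON, with medians of −0.19, −0.18 and −0.018. The shares over all tested genes were 16.2% higher and 17.3% lower against CON, and 9.87% higher and 19.2% lower against GA. The 6 calls in GB vs. CON went to 1 with GC content and 0 with the replicate block added, and the 5 in GB vs. GA to 3 after rescaling to the same sum, 2 with median-of-ratios factors and 3 without GA library 2 or 3 or GB library 2. *FASN*, fatty acid synthase, was at 81.5, 89.2 and 85.1 FPKM in CON, 77.1, 78.4 and 79.0 in GA and 69.3, 67.4 and 67.2 in GB, and fell by 20.3% from CON and 13.1% from GA (log2FC −0.32 and −0.20). *ELOVL6*, a fatty acid elongase, fell by 23.4% and 23.2% (log2FC −0.37 in both). *FADS1*, a desaturase whose locus overlaps with *FADS2*, fell by 22.8% and 14.6% (log2FC −0.37 and −0.23). *SCD*, the stearoyl-CoA desaturase, went the other way, from 38.1 ± 1.297 in CON and 39.9 ± 2.29 in GA to 49.8 ± 3.17 FPKM in GB (log2FC 0.38 and 0.32). With library GC content as a covariate the GB vs. CON calls of *FASN*, *ELOVL6* and *SCD* were lost, at log2FC of −0.23, −0.15 and 0.34. With median-of-ratios factors that of *FASN* in GB vs. GA was lost. The *FADS1* call in GB vs. GA was lost in 11 of 21 other fits, among them those without CON library 1, any 1 of the GA libraries or GB library 1 or 2.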
